A study of Mus musculus with 2 samples.

Results

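Lipid uptake, carriage and storage were followed through 10 genes, Apoe, Lpl, Cd36, Fabp3, Fabp4, Fabp5, Plin2, Plin3, Plin4 and Pparg, taken by name from a table of 49492 mouse genes. All 10 were found in the table. The genes were chosen by their read counts in these same libraries, with the difference between ctrl and M2 already known, so their differences are given as a description and no test was applied to them. The data come from colonies grown in a 3D matrix gel from basal cells sorted from mammary glands of adult wild-type (WT) mice. The paper's flow cytometry found such colonies to be mostly luminal cells in both cultures. With M2 co-culture it found a larger basal share and fewer luminal cells high in Sca1, a marker of estrogen receptor-positive cells. The ctrl library (treatment none) came from cells grown without macrophages, and the M2 library from cells co-cultured for 11 to 14 days with M2-like macrophages. Per the study's methods, the macrophages were grown from bone marrow of C57/B6 mice, polarised with the cytokines Il-4 and Il-13, and kept in an insert with a porous membrane, renewed at intervals. Both cultures shared a medium with EGF and an insulin, transferrin and selenium supplement. The time in culture of the ctrl library is not given, so a difference in time could not be told apart from the co-culture. The sort kept lin- CD24+ CD29hi cells, a gate that leaves out blood cells by CD45 and endothelial cells by CD31. The strain and sex of the basal cell donors and the number of animals are not given in the sources used here. There was 1 library per group, so no difference could be compared with the spread between cultures, and intervals cover counting error only.

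Cells take up lipid in several forms. Lipoprotein lipase (Lpl) releases fatty acids from circulating triglyceride, the scavenger receptor Cd36 carries fatty acids through the plasma membrane, and small fatty acid binding proteins (Fabp3, Fabp4 and Fabp5) carry them through the cytosol. Surplus lipid is stored as triglyceride and sterol ester in droplets, which are coated by perilipins (Plin2, Plin3 and Plin4), while apolipoprotein E (Apoe) carries cholesterol between cells and is a ligand of lipoprotein receptors. The nuclear receptor Pparg binds fatty acid derivatives and is a known activator of Cd36, Fabp4 and several perilipins in adipocytes. In the mammary gland, alveolar cells make and secrete milk fat, and Plin2 coats the droplets from which milk fat globules form.

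The ctrl library held 26912610 reads in genes and the M2 library 29413844 reads. Levels are given as CPM, the reads of a gene per 1000000 reads, with the library size scaled by the trimmed mean of M values, with 95% Poisson intervals. A count of 0 was set to 3 reads where a fold was needed, which corresponds to 0.109 CPM in ctrl and 0.104 CPM in M2. The Poisson interval of a count of 0 reaches higher, to 0.128 CPM in M2. A gene was called when at least 10 reads were found over both libraries and the libraries were at least 2-fold apart on the log2 scale with a pseudocount of 1 read. Of the 10 genes, 9 had at least 10 reads, of which 2 were called higher in M2 (Fabp5 and Pparg) and 3 lower (Apoe, Cd36 and Fabp4). Of all 19233 genes with 10 reads, 17.3% were called, 9.53% as higher and 7.82% as lower, with a median log2 difference of -0.0032. Because the genes were proposed on this contrast, nothing is read from their share. The 4 genes Apoe, Fabp5, Plin2 and Plin3 had over 1000 reads in each library, whereas the remaining 6 had at most 116 reads in either.

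**Figure D1:**
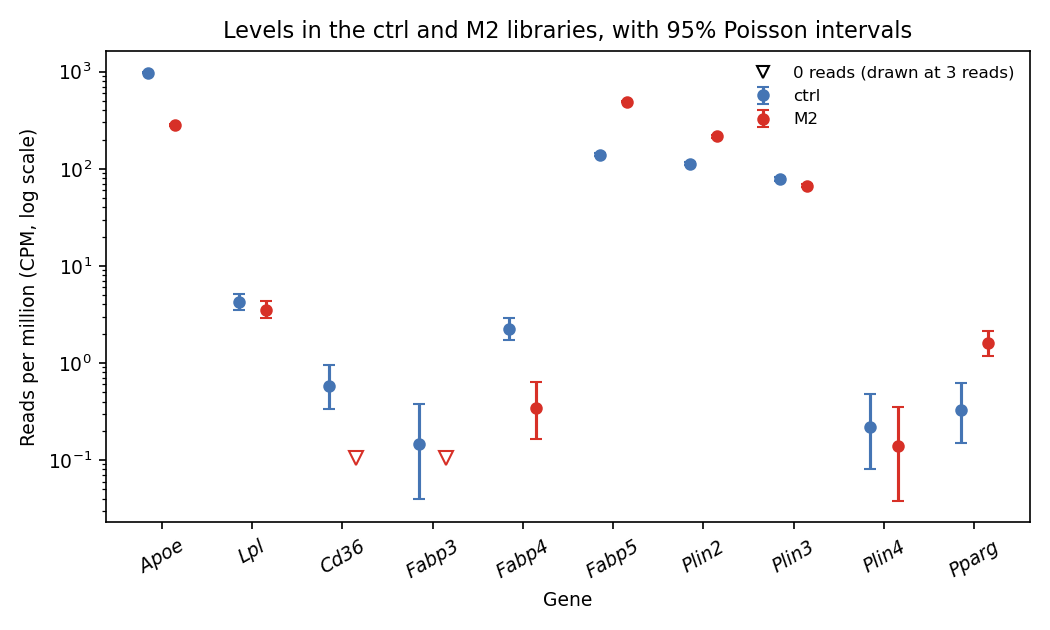
Level of each of the 10 lipid genes in the ctrl library (blue) and the M2 library (red), in CPM on a log axis, with 95% Poisson intervals; a triangle marks 0 reads and is drawn at 3 reads. Apoe stood at 978 CPM in ctrl and 285 CPM in M2, Fabp5 at 140 and 490 CPM, and Cd36 and Fabp3 had 0 reads in M2.

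RefSeq promoter windows on GRCm38.p6, 250 bases before to 50 after a gene start, were at hand for 7 of the 10 genes, namely Apoe, Cd36, Fabp3, Plin2, Plin3, Plin4 and Pparg. Those of Apoe, Plin2 and Pparg are shown as those of a sterol carrier, a droplet coat and the nuclear receptor. Capitals mark matches, on either strand, to the nuclear receptor hexamer AGGTCA, the hypoxia element core ACGTG, the E-box CACGTG or the TATA letters TATAAA. The Apoe window is chr7:19699139-19699438, the Plin2 window chr4:86670010-86670309 (both minus strand) and the Pparg window chr6:115360894-115361193 (plus strand), each written 5′ to 3′ in the direction of the gene.
Apoe: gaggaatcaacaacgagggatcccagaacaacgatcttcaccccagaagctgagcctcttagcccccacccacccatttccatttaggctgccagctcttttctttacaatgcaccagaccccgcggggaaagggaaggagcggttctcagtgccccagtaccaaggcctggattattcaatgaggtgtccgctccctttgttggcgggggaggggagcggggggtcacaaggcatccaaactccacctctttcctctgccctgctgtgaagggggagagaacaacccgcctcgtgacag
Plin2: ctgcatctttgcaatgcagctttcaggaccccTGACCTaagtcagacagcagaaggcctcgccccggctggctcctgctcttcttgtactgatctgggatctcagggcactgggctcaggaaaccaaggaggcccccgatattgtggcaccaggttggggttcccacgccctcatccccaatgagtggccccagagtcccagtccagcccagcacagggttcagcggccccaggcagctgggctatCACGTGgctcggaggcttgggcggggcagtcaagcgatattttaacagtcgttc
Pparg: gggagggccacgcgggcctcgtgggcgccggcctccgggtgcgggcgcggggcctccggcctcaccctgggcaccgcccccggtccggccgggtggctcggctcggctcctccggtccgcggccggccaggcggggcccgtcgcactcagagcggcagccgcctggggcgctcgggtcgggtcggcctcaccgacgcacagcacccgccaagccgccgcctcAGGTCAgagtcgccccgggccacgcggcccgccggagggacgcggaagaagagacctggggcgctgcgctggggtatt
The Apoe window shown held none of these motifs, and another Apoe window held TATAAA at position -96 and, on the opposite strand, at -100. The Plin2 window held AGGTCA on the opposite strand at position -218 and CACGTG at position -4, counted from 0 at the gene start, and because CACGTG is a palindrome it holds ACGTG on both strands. The Pparg window held AGGTCA at position -28. Among the windows not shown, 1 of Cd36 held AGGTCA on the opposite strand at position -228 and another of Pparg held it at position -9. That Pparg window also held TATAAA on the opposite strand at position -29. Among all 32851 windows, 16.3% held AGGTCA, 19.6% ACGTG, 7.15% CACGTG and 13.6% TATAAA. The PPAR response element written as AGGTCANAGGTCA was found in 0.0396% of windows and in none of the 11 windows of these genes. A match is a run of letters in this window and not a binding site.

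To ask how the sterol carrier differed, Apoe (chr7:19696109-19699188, minus strand, protein-coding, GRCm38) was compared first. It had 26857 ctrl reads and 8227 M2 reads, which is 978 CPM (966 to 989) and 285 CPM (279 to 292). It was therefore 3.42-fold lower in the M2 library, a log2 difference of -1.78 (95% counting interval -1.81 to -1.74), and 3.18% of all genes with 10 reads had a lower value. Only 77 genes exceeded Apoe per length in ctrl, against 397 in M2. Of 12 other apolipoprotein and sterol efflux genes with 10 reads, 1 was called higher and 0 lower, with a median log2 difference of 0.14. The gene called was Clu (clusterin, also named apolipoprotein J), a secreted chaperone found on lipoproteins, with 8117 ctrl reads and 39328 M2 reads. Its level was 296 and 1365 CPM, a log2 difference of 2.21 (2.17 to 2.24), opposite in direction to that of Apoe. Abca1, the exporter that loads cholesterol onto apolipoproteins, had 157 and 158 CPM, a log2 difference of 0.01 (-0.05 to 0.07). Mylip, a ubiquitin ligase of sterol homeostasis, had a log2 difference of 0.74 (0.64 to 0.84) and was not called. The genes Apoa2, Apoa4, Apoc3 and Apoc4 had 0 reads in both libraries.

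Next, genes of lipid uptake at the cell surface were compared. Lpl (chr8:68880491-68907448, plus strand) had 116 ctrl reads and 102 M2 reads, which is 4.22 CPM (3.49 to 5.07) and 3.54 CPM (2.89 to 4.30). Its log2 difference of -0.25 (-0.65 to 0.14) was not distinguishable from 0 at this depth. Cd36 (chr5:17781690-17888801, minus strand) had 16 ctrl reads and 0 M2 reads. With the M2 count set to 3 reads and the ctrl count taken as observed, Cd36 was 5.60-fold lower in M2. With the counting error of both libraries, the 95% interval of its log2 difference ended at -2.02, nearer to 0 than this value of -2.48. Its level in ctrl was only 0.582 CPM (0.333 to 0.946), so the whole difference rests on these 16 reads.

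The receptors and lipase partners around them differed in both directions. Of 13 genes with 10 reads, 3 were called higher (Lrp8, Lipg and Olr1) and 2 lower (Sort1 and Lipc), and the median log2 difference was 0.24. Lrp8, a receptor that binds apoE, had 199 ctrl reads and 615 M2 reads, a log2 difference of 1.55 (1.33 to 1.80). Lipg, the endothelial lipase that cleaves lipoprotein phospholipid, had 372 and 1125 reads, a log2 difference of 1.52 (1.36 to 1.70). Olr1, a receptor of oxidised LDL, had 1 and 20 reads, a log2 difference of 3.32 with a wide counting interval of 1.61 to 9.63. In the other direction, Sort1 (sortilin, a sorting receptor) had 3556 and 1540 reads, a log2 difference of -1.28 (-1.36 to -1.19), and Lipc had only 19 and 8 reads. The genes with the most reads were Scarb2, a lysosomal membrane protein related to Cd36, and Lrp1, an endocytic receptor of apoE. Their log2 differences were -0.78 (-0.82 to -0.74) and -0.39 (-0.44 to -0.34), and neither was called. Gpihbp1, the capillary anchor of Lpl, had 0 reads in both libraries.

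Of the 3 fatty acid binding proteins, Fabp5 and Fabp4 differed in opposite directions and Fabp3 had too few reads to compare. Fabp5 (chr3:10012548-10016607, plus strand), the form known from epidermis, had 3852 ctrl reads and 14126 M2 reads, which is 140 CPM (136 to 145) and 490 CPM (482 to 498). It was 3.49-fold higher in the M2 library, a log2 difference of 1.81 (1.75 to 1.86), and 96.1% of all genes with 10 reads had a lower value. Fabp4 (chr3:10204088-10208576, minus strand), the form known from adipocytes, macrophages and capillary endothelium, lies 187480 bases away from Fabp5 in the same cluster and differed in the opposite direction. It had 62 ctrl reads and 10 M2 reads, which is 2.26 CPM (1.73 to 2.89) and 0.347 CPM (0.166 to 0.638), a log2 difference of -2.59 (-3.83 to -1.73). Fabp3 (chr4:130308595-130315463, plus strand), the form known from heart and muscle, had 4 and 0 reads and was not compared. Its gene also overlaps Zcchc17 and Gm10570 on the opposite strand, and the use of strand in counting is not stated. Per length, Fabp5 made up 98.3% of the summed level of these 3 genes in ctrl and 99.9% in M2.

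Because Fabp5 has processed pseudogenes, reads could be exchanged between copies. In GENCODE M21, 5 other genes matched the Fabp5 transcript over at least 200 bases at 90% identity or more. They held 255 reads in ctrl and 974 in M2, most of them in Gm6166 (246 and 921 reads, 98.3% identity). The log2 difference of the summed copies was 1.86 (1.66 to 2.07), and that of Fabp5 with all copies added was 1.81 (1.76 to 1.86). For the remaining genes, Fabp3 and Plin2 each had 1 such copy, with at most 3 reads in either library, and the other 7 genes had none.

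Genes that move fatty acids across membranes and couple them to coenzyme A were read next to the binding proteins. Of 15 genes with 10 reads, 2 were called higher (Acsl4 and Cavin1) and 4 lower (Acsl1, Acsl6, Acsbg1 and Slc27a6), with a median log2 difference of -0.25. The acyl-CoA synthetases therefore differed in direction. Acsl4, which prefers arachidonic acid, had 3250 ctrl reads and 7484 M2 reads, a log2 difference of 1.13 (1.07 to 1.19). Acsl1, the main form of adipocytes and liver, had 1415 and 611 reads, a log2 difference of -1.28 (-1.42 to -1.14), and Acsbg1 had 291 and 71 reads, a log2 difference of -2.09 (-2.50 to -1.73). Acsl6 had 40 and 3 reads, a log2 difference of -3.43 (-6.14 to -2.16), and Slc27a6, a fatty acid transport protein, 502 and 208 reads, a log2 difference of -1.34 (-1.58 to -1.10). Cavin1, a coat protein of caveolae listed under its older symbol Ptrf, had 2855 and 8930 reads, a log2 difference of 1.58 (1.51 to 1.64). The genes with the most reads, Dbi (an acyl-CoA binding protein) and Acsl3, had log2 differences of -0.67 (-0.71 to -0.63) and 0.18 (0.14 to 0.23) and were not called.

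To ask whether the droplet coat differed, the perilipins were compared. Plin2 (chr4:86648386-86670060, minus strand), whose promoter window is shown above, had 3090 ctrl reads and 6216 M2 reads, which is 112 CPM (109 to 117) and 216 CPM (210 to 221). It was 1.92-fold higher in M2, a log2 difference of 0.94 (0.88 to 1.0), just under the 2-fold threshold, and it was called when the threshold was 1.5-fold. Plin3 (chr17:56278962-56290511, minus strand), which coats small nascent droplets and cycles to the cytosol, had 2154 and 1935 reads, a level of 78.4 CPM (75.1 to 81.8) and 67.1 CPM (64.2 to 70.2). Its log2 difference was -0.22 (-0.31 to -0.13). Plin4 (chr17:56100591-56109803, minus strand), a form of adipocytes and muscle, had 6 and 4 reads, and its log2 difference of -0.55 (-2.92 to 1.42) could not be told from 0. The gene shares 6 bases with Hdgfrp2 on the opposite strand. Of the perilipins outside the set of 10 genes, Plin1, the coat of adipocyte droplets, had 1 and 0 reads, and Plin5, the coat of oxidative tissues, had 6 and 20.

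**Figure D2:**
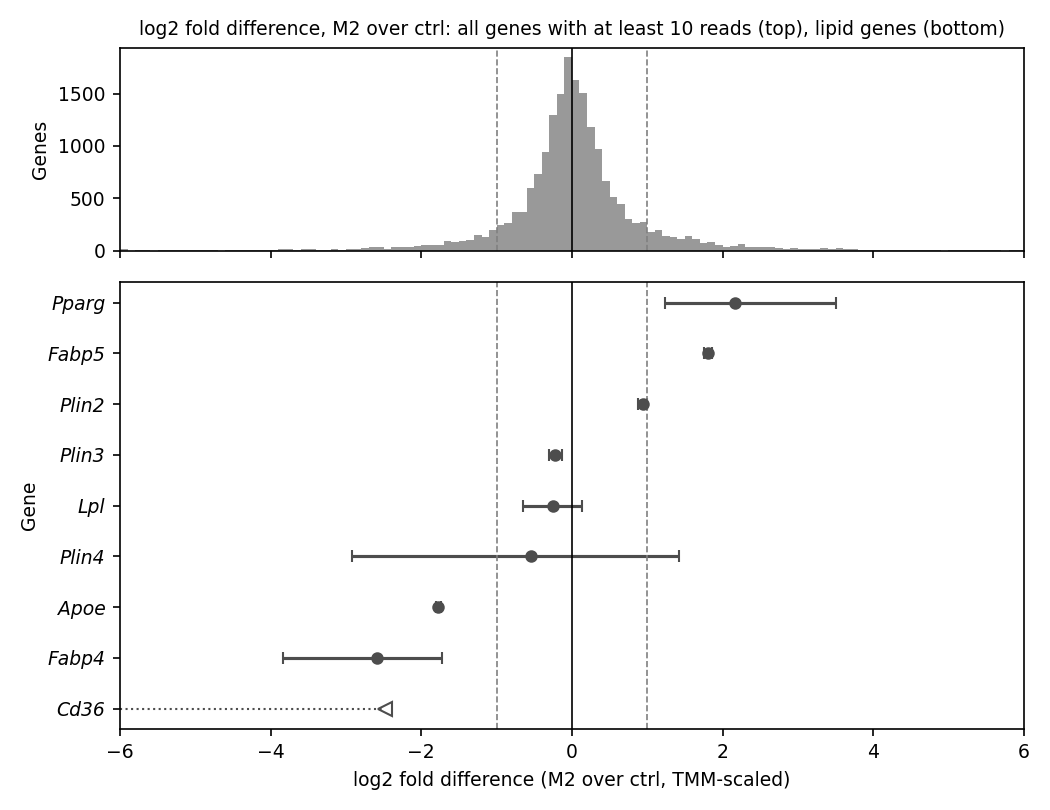
Top, number of genes by log2 fold difference (M2 over ctrl) for the 19233 genes with at least 10 reads, with values past 6 drawn at the edge. Bottom, the 9 lipid genes that passed this filter, with points at the difference and bars for the 95% counting interval. The open triangle of Cd36 is the value with M2 set to 3 reads, and dashed lines mark 2-fold. Pparg (2.16) and Fabp5 (1.81) lie past the right line, Plin2 (0.94) just inside it, and Apoe (-1.78) and Fabp4 (-2.59) past the left line.

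Levels were compared between genes only per length, as TPM, the reads per base of gene length scaled to a sum of 1000000 in each library, with the length in the table. In ctrl the order was Apoe (1189 TPM), Fabp5 (102), Plin3 (94.5), Plin2 (83.3), Fabp4 (1.31), Lpl (1.05), Fabp3 (0.460), Cd36 (0.422), Pparg (0.289) and Plin4 (0.0983). In M2 it was Fabp5 (347 TPM), Apoe (337), Plin2 (155), Plin3 (78.4), Pparg (1.36), Lpl (0.852), Fabp4 (0.195) and Plin4 (0.0606), with Cd36 and Fabp3 at 0. The counting intervals of Fabp5 and Apoe overlapped in M2 (341 to 352 and 330 to 344 TPM). Those of all neighbours from Fabp4 down to Plin4 in ctrl also overlapped. So did those of Pparg and Lpl, and of Fabp4 and Plin4, in M2. With the length in the table, these neighbours could not be ordered. The ratio of Apoe to Fabp5 was 11.6 in ctrl and 0.972 in M2, and that of Plin2 to Plin3 was 0.882 and 1.97. The length of Fabp5 in the table is 3567 bases, against 987 bases for its longest basic coding transcript in GENCODE M21, while Plin3 has 2159 bases in the table and 3645 in that transcript. With the length of such a transcript for each gene, an alternative chosen after seeing the data, Plin2 stood above Plin3 in both libraries (ratios of 2.77 and 6.20), and Fabp5 stood at 1027 TPM in M2 against 419 TPM for Apoe. The order of Plin2 and Plin3 in ctrl thus depended on the length used. So did that of Pparg and Lpl in M2, which stood at 1.55 and 1.78 TPM with the transcript length. Fabp4 has 4489 bases in the table and 896 in that transcript. In ctrl, Fabp4 and Lpl stood at 5.46 and 2.23 TPM with the transcript length, further apart than 1.31 and 1.05. The length of a gene cancels when its level is compared between the libraries.

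**Figure D3:**
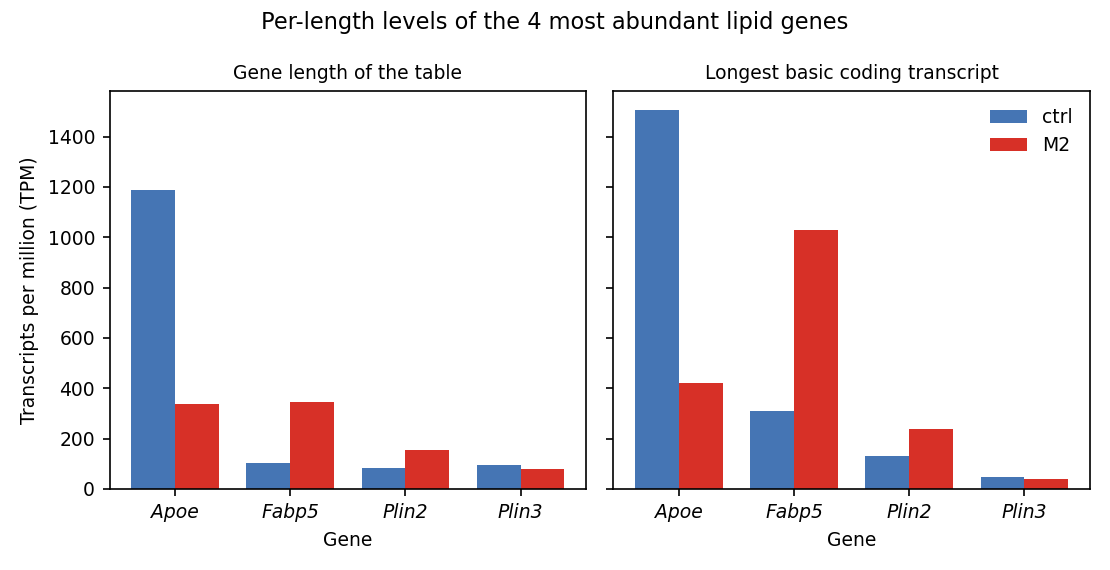
Level per length, in TPM on a linear axis from 0, of Apoe, Fabp5, Plin2 and Plin3 in ctrl (blue) and M2 (red), with the gene length of the table (left) or the length of the longest basic coding transcript (right); 1 library per bar. Apoe is the highest bar of ctrl in both panels (1189 and 1506 TPM), and Fabp5 the highest of M2 (347 and 1027 TPM).

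The enzymes that fill and empty droplets were compared next. Of 23 droplet coat and triglyceride assembly genes with 10 reads, 2 were called higher (Dgat2 and Plin5) and 0 lower, with a median log2 difference of 0.05. Dgat2, which catalyses the last step of triglyceride synthesis, had 255 ctrl reads and 727 M2 reads, a log2 difference of 1.44 (1.23 to 1.65). Plin5 had a log2 difference of 1.52, with a counting interval of 0.30 to 3.27. Hilpda, a droplet protein that restrains lipolysis, went the other way, with 364 and 209 reads and a log2 difference of -0.87 (-1.12 to -0.62), and was not called. Rab18, a droplet GTPase, and Gpat4, an acyltransferase of droplet growth, had log2 differences of 0.05 and 0.29. Among 11 genes of lipolysis or its regulation, 1 was called higher, Pde3b with 8 and 23 reads, and 0 lower, with a median of 0.19. The counting interval of Pde3b, 0.24 to 2.82, reached under 2-fold. It was not called with the whole interval required past 2-fold or with at least 1 CPM in both libraries. Prkacb and Prkaca, catalytic subunits of the kinase that triggers lipolysis, had log2 differences of 0.33 and -0.31. Faah, which cleaves fatty acid amides, and Mgll, which cleaves monoglyceride, had values of 0.74 and -0.60. Pnpla2, the lipase that starts triglyceride breakdown, had 1320 and 1377 reads, a log2 difference of -0.01 (-0.12 to 0.10).

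The nuclear receptor was compared with its known target genes and partners. Pparg (chr6:115360951-115490399, plus strand) had 9 ctrl reads and 46 M2 reads, which is 0.328 CPM (0.15 to 0.622) and 1.6 CPM (1.17 to 2.13). Its log2 difference was 2.16 (1.24 to 3.50), 4.48-fold higher in M2, from a level near the limit of detection in ctrl. Of its targets known from adipocytes among the 10 genes, Fabp4 and Cd36 were called lower in M2, and Lpl (-0.25), Plin2 (0.94) and Plin4 (-0.55) were not called. Pdk4, a known PPAR target outside the 10 genes, was called higher (3.72), as given below. These are not all known targets. Among 15 PPAR and partner genes with 10 reads, 0 were called higher and 2 lower, with a median log2 difference of -0.04. The latter were Ppara, the form of liver and oxidative tissue, with 45 and 14 reads (log2 difference -1.69, -2.73 to -0.86), and the coactivator Ppargc1b with 362 and 169 reads (-1.16, -1.44 to -0.90). Ppard, the widely expressed form, had far more reads than Pparg, 1348 in ctrl and 1854 in M2, and a log2 difference of 0.39 (0.29 to 0.49). The corepressor Ncor1 had a log2 difference of -0.04.

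Fatty acid oxidation, the other fate of stored lipid, was read from 28 genes. Of the 26 genes with 10 reads, 1 was called higher and 0 lower, and the median log2 difference was -0.07. The gene called was Pdk4, a kinase that shuts off pyruvate oxidation and a known PPAR target, with 56 ctrl reads and 788 M2 reads, a log2 difference of 3.72 (3.35 to 4.16). Acadl and Hadh, enzymes of the mitochondrial spiral, had log2 differences of 0.34 and -0.27. Cpt1a, which admits fatty acids to mitochondria, had 3864 and 2647 reads, a log2 difference of -0.61 (-0.69 to -0.54), and was not called.

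Genes of the milk fat globule, which forms around Plin2-coated droplets, differed in both directions. Of 5 genes, 1 was called higher and 1 lower, with a median log2 difference of 0.79. Btn1a1 (butyrophilin), a membrane protein of the globule, had 4030 ctrl reads and 619 M2 reads, a log2 difference of -2.77 (-2.90 to -2.65). Muc1, a mucin of the globule surface, had 467 and 1841 reads, a log2 difference of 1.91 (1.76 to 2.06). Mfge8, the globule protein with the most reads, had a log2 difference of 0.24 (0.22 to 0.27), and Xdh, the globule's xanthine dehydrogenase, one of 0.97 (0.88 to 1.07). Over the 8 lists together, 119 of 148 genes had 10 reads, of which 11 were called higher and 9 lower. This is 16.8% of them, beside 17.3% of all genes, and their median log2 difference was 0.00. By list, the share called ran from 3.85% in fatty acid oxidation to 40.0% in fatty acid transport and activation and in milk fat globule. It was 38.5% for lipoprotein receptors and lipase partners.

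**Figure D4:**
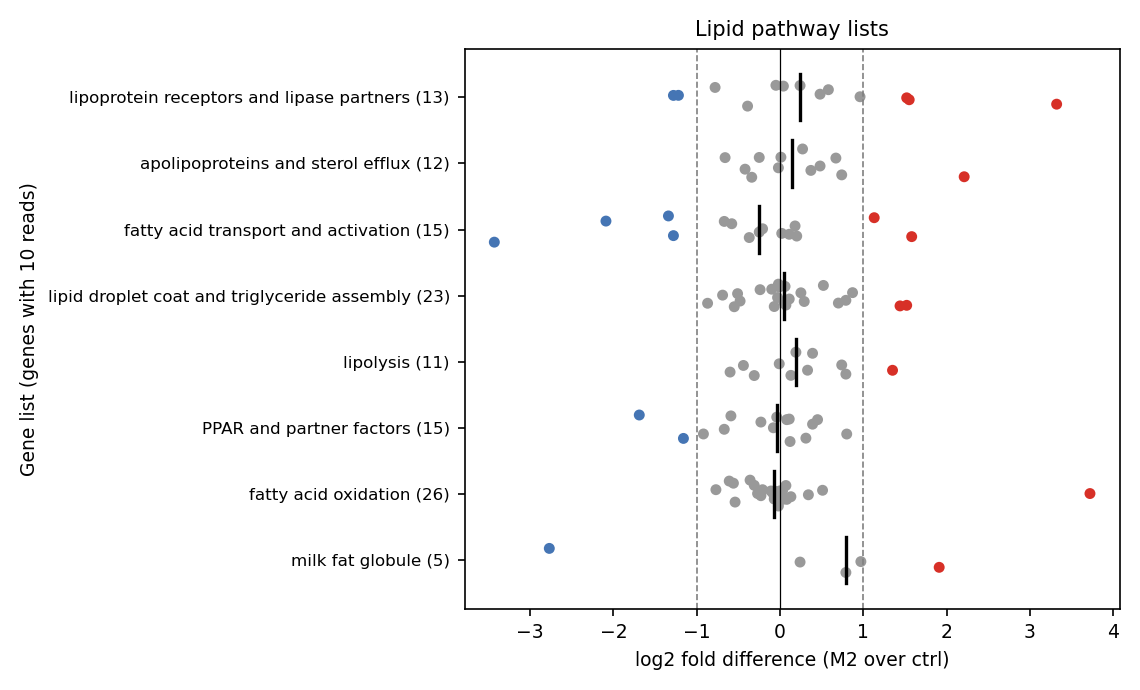
Log2 fold difference (M2 over ctrl) of the genes of 8 lipid lists, 1 point per gene with at least 10 reads, with the number of such genes in parentheses; vertical spread is only for legibility. Red points are called higher, blue points lower and grey points neither, black bars are list medians and dashed lines mark 2-fold. Pdk4 (3.72) stands apart in fatty acid oxidation and Btn1a1 (-2.77) in milk fat globule.

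Markers of other cell types were read beside these genes, because Apoe, Cd36, Fabp4 and Lpl are also expressed by macrophages, adipocytes or capillary endothelium. In bulk libraries, fewer cells of a type and less RNA per cell cannot be told apart. Of 18 macrophage markers, 13 had at most 3 reads in ctrl and 12 in M2, and Tyrobp, Fcer1g, Adgre1, C1qb, C1qc, Ptprc and Chil3 had 0 in both. Their sum was 67.3 CPM in ctrl and 83.3 CPM in M2, most of it from Arg1 (1507 and 2090 reads), while Cd68 had 170 and 165 reads and Csf1r 94 and 92. Of 5 with 10 reads, Itgam (3 and 9 reads) was called higher and Mertk (64 and 32) lower. The counting interval of Itgam, -0.49 to 4.04 on the log2 scale, included 0. The macrophages were kept apart from the colonies by the insert, and the part of macrophages in the lower Apoe was not tested.

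Of 12 adipocyte markers, 8 were at or under 3 reads in ctrl and 7 were in M2. They had a sum of 31.0 and 22.1 CPM. Adipoq had 2 and 0 reads, Cfd 0 and 1, and Adrb3 and Pck1 had 0 in both. Those with the most reads over both libraries were Slc2a4 (461 and 357 reads), Lipe (177 and 243) and Lep (198 and 6 reads, a log2 difference of -4.90, -6.58 to -3.97). Of 4 with 10 reads, Lep was called lower and Thrsp (5 and 23 reads) higher. Of 12 endothelial markers, 5 were at or under 3 reads in ctrl and 7 were in M2. They had a sum of 6.44 and 8.54 CPM, and Gpihbp1 and Cldn5 had 0 in both. Kdr (11 and 0 reads) and Cdh5 (11 and 2 reads) were lower in M2, as were Cd36 and Fabp4. Pecam1 (33 and 76 reads) and Vwf (4 and 12) were called higher, but the counting interval of Vwf, -0.21 to 3.6, included 0. Rbp7 had 80 and 120 reads and Egfl7 28 and 24. The basal sort left out CD31+ cells before culture, and the part of endothelial cells in the lower Cd36 and Fabp4 was not tested.

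Epithelial markers were present in both libraries, with all 10 basal and all 12 luminal markers above 3 reads in each. The basal markers summed to 7984 CPM in ctrl and 8312 CPM in M2, with 1 called higher (Krt17, 6051 and 16592 reads) and 1 lower (Oxtr, 8324 and 1920), and Krt14, Krt5 and Myh11 had log2 differences of -0.32, 0.50 and -0.06. The luminal markers summed to 4194 and 3488 CPM. Their keratins Krt8 and Krt18 and the adhesion protein Epcam had log2 differences of 0.21, -0.05 and 0.06. However, 5 of the 12 (Elf5, Kit, Foxa1, Esr1 and Prlr) were called lower and 0 higher. Over all genes with 10 reads, 7.82% were called lower and 9.53% higher. Of 12 fibroblast markers, 2 were called higher (Dcn and Fbln1) and 4 lower (Pdgfrb, Col1a2, Col3a1 and Lum). Lum had only 10 and 3 reads, and its counting interval of -4.31 to 0.15 included 0. The fibroblast markers summed to 1496 and 2215 CPM, mostly from Fn1 (31707 and 59215 reads). Col1a2 and Col1a1 had log2 differences of -1.68 and -0.98. By the paper's flow cytometry, the luminal share and the Sca1-high luminal cells were also lower with M2 co-culture. The part of luminal subtypes or of fibroblasts in the lower Apoe was not tested, nor was that of adipocytes.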

How the data were processed

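RNA of 1 ctrl and 1 M2 library was analysed. The authors deposited 1 table of whole-number read counts for each gene, which were not normalized. It also lists exon coordinates and, as another value per gene, the summed exon length in bases that the deposited header calls Length. Per the labels, a SMARTER mRNA kit was used for library preparation. The submitters' processing notes name GRCm38 and mm10. The aligner, the counting tool, the annotation and the use of strand are not given in the sources used here. Libraries were scaled by TMM in edgeR 4.0.16 under R 4.3.3. Genes with at least 10 reads summed were compared by log2 fold difference with a pseudocount of 1 read, and a gene was called at 2-fold. Counting intervals of a fold come from the exact (Clopper-Pearson) 95% limits on the M2 share of a gene, and those of a level from exact Poisson limits, computed with scipy 1.17.1 under Python 3.11.15. They cover counting error only, as no molecular identifiers are stated. For a fold, a count of 0 was set to 3 reads, which is below the upper end of the exact Poisson interval. With 1 library per group no test was run. Copies of the genes were sought among GENCODE M21 transcripts with blastn 2.17.0, and the promoter windows are RefSeq's. The functions were tested on simulated data.

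The 10 genes and all lists were chosen with earlier results of these data known. The 8 lipid and 6 marker lists were described by counts and medians. The text names all 10 genes, the 2 genes with the most reads and the 2 with the largest difference (of at least 50 reads summed) of each lipid list, and the 3 genes with the most reads of each marker list. Some genes that this rule names are not reported here. Other genes it names, among them every called gene of a list, Pnpla2, Ppard, Cpt1a, Xdh and Plin1, were chosen after their values were seen. Cavin1 and Gpat3 were matched to the older symbols Ptrf and Agpat9 through RefSeq synonyms. Alternatives were 3 other scalings, pseudocounts of 0.5 and 5 reads, filters of 1 read summed or 1 CPM in both libraries, and calls at 1.5-fold, at 4-fold or with the whole interval past 2-fold.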

Additional observations from a re-analysis of the deposited data

How the results depend on the processing

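Values were computed again under each alternative, 1 at a time. Under the 3 other scalings and both pseudocounts, the 2 lipid genes called higher (Fabp5 and Pparg) and the 3 called lower (Apoe, Cd36 and Fabp4) were the same genes, and the 9 genes with 10 reads kept their sign. The log2 difference ran from -1.83 to -1.77 for Apoe, 1.75 to 1.81 for Fabp5, 0.88 to 0.94 for Plin2, 1.80 to 2.22 for Pparg and -2.65 to -2.23 for Fabp4. Cd36, at 0 reads in M2, depends on the pseudocount and is given only with the M2 count set to 3 reads and as the end of its interval. With at least 1 CPM in both libraries, 5 of the 10 genes could be compared, leaving 1 higher (Fabp5) and 1 lower (Apoe), and over all genes 797 and 583 were called. With only 1 read summed, all genes gave 3174 higher and 4001 lower, 44.2% of calls higher against 54.9%, and the lipid lists 15 lower, and Fabp3 joined the genes called lower, 4 of the 10. At 1.5-fold, 3179 and 2842 genes were called, with 21 and 20 of the lipid lists, and Plin2 joined the genes called higher. At 4-fold, 616 and 494 were called over all genes, 3 and 3 in the lipid lists, and among the 10 genes 1 was higher (Pparg) and 2 lower (Cd36 and Fabp4), so that Fabp5 and Apoe were no longer called. Requiring the whole counting interval past 2-fold gave 938 and 679 over all genes and called the same 5 of the 10 genes as before. Depth limits Fabp3, Plin4 and Cd36. No paired analysis was possible because a group has only 1 library.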
